A study of Caenorhabditis elegans with 12 samples.

Results

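The genes described here encode the conserved parts of the enzyme chain that attaches ubiquitin to proteins: the activating enzymes (E1, *uba* genes), the conjugating enzymes (E2, *ubc* genes), the Skp1-related adaptors (*skr* genes), the cullin scaffolds (*cul* genes) and the RING subunits that sit on the cullins (*rbx* genes). They were chosen by name, with earlier results of these data known. The rule took every gene of the deposited table whose public name is one of these 5 prefixes followed by a hyphen and a number. This gave 52 of the 45461 counted genes, comprising 2 *uba*, 21 *ubc*, 21 *skr*, 6 *cul* and 2 *rbx* genes. Enough reads for a test were present for 39 of the 52 (2 *uba*, 16 *ubc*, 13 *skr*, 6 *cul* and 2 *rbx* genes), among 8746 genes tested in all.

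Ubiquitin is activated by an E1, passed to an E2 and transferred to a substrate with the help of an E3 ligase. In cullin-RING ligases, the largest family of E3 enzymes, a cullin holds an Rbx protein that recruits the E2 at one end and an adaptor with its substrate receptor at the other, and Skp1 proteins are the adaptors that join CUL-1 to F-box receptors. In the *C. elegans* germ line such ligases are known for roles in cell cycle control, meiosis and the passage from oocyte to embryo, and attachment of the ubiquitin-like protein NEDD8 activates the cullins.

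RNA was sequenced from dissected hermaphrodite gonads of *set-2*(*bn129*) animals, which carry a mutation in the H3K4 methyltransferase of the SET1/COMPASS complex and become sterile over generations at 25°C. There were 4 groups of 3 samples, with 1 sample per group from each of 3 lineages, all collected on day 1 of adulthood. P0 animals were heterozygous, *set-2*(*bn129*)/*qC1*(*qIs26*) by the study's methods, and carried the *qC1* balancer of chromosome III. All later animals were homozygous for *set-2*(*bn129*). F2 fertile and F4 fertile animals laid live progeny, while F4 sterile animals were picked for a uterus without embryos. Each sample pooled gonad arms cut at the bend from many animals of a lineage. All 4 groups carried the *bn129* allele and were kept at 25°C, and P0 gonads served as the reference. By the study's methods the strain was moved to 25°C only 1 generation before the experiments, so that later groups had spent more generations at 25°C. Against P0, loss of the wild-type copy, absence of *qC1*(*qIs26*) and the generations spent at 25°C cannot be told apart. The 5 members on chromosome III (*cul-1*, *cul-2*, *ubc-7*, *ubc-18* and *ubc-20*) lie on the balanced chromosome, and an effect of the balancer on them cannot be told apart from that of homozygosity.

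Between 3456068 and 10335794 reads per sample were counted on genes, so that 3 counts corresponded to between 0.290 and 0.868 CPM (the usual depth-scaled read count, here relative to all reads on genes and after TMM scaling). The mean level of the *set-2* transcript itself was 192 ± 5.78 CPM in P0 gonads, 146 ± 9.05 CPM in F2 fertile gonads, 125 ± 3.83 CPM in F4 fertile gonads and 132 ± 1.86 CPM in those of F4 sterile animals (SD, n = 3 each). Germ line markers were present in every sample, and their summed level over 10 genes lay between 2892 and 3241 CPM in F4 sterile gonads, against 3938 to 4175 CPM in P0 gonads. The list went both ways, since 6 of the 10 were lower (*pgl-1*, *pgl-3*, *glh-1*, *gld-1*, *htp-3* and *him-3*) and 3 were higher (*glp-1*, *nos-2* and *syp-1*) in F4 sterile than in P0 gonads. Summed over 6 genes, oocyte markers lay between 7147 and 9337 CPM in F4 sterile gonads, against 11025 to 11963 CPM in P0 gonads. The sum of 6 neuronal markers was 140.0 to 154 CPM in F4 sterile gonads, against 96.1 to 103 CPM in P0 gonads. The sums of intestine markers (6 genes, 595 to 3370 CPM in F4 sterile against 1853 to 2387 CPM in P0 gonads) overlapped. So did those of somatic gonad markers (7 genes, 37.3 to 79.8 against 39.5 to 58.5 CPM). The somatic gonad list nevertheless went both ways in F4 sterile against P0 gonads. Of its 4 tested genes, *fos-1* and *inx-9* were higher (2.63 and 1.09 on the log2 scale) and *inx-8* was lower (-0.77). Sperm marker sums did not overlap (7 genes, 8.26 to 30.99 against 3.35 to 7.98 CPM). Of the 2 tested sperm genes, *fer-1* was higher. Lineage 2 was the highest of the 3 F4 sterile samples in the intestine, muscle, epidermis, somatic gonad and sperm lists. Among defining markers, *hlh-1* of muscle was at 0 in every group. The part of cell composition in the changes given below was not tested, and in such bulk samples fewer cells of a type and less RNA per cell cannot be told apart.

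Levels of the 52 genes covered a wide range. Per kilobase of exon and averaged over the 12 samples, *uba-1*, which encodes the only E1 for ubiquitin in *C. elegans*, was the most abundant member at 330.0 CPM per kb. It was followed by *rbx-1* at 246, *ubc-9* at 231, *ubc-18* at 226 and *ubc-7* at 221 CPM per kb, against a median of 30.9 CPM per kb over the tested genes with a known exon length. *skr-2* (175 CPM per kb) and *skr-1* (141 CPM per kb) led the *skr* genes. The order of the cullins was *cul-3* (127 CPM per kb), *cul-2* (117), *cul-1* (87.3), *cul-4* (54.6), *cul-5* (33.8) and, far below, *cul-6* (0.812). At the other end, 13 members stayed under the expression filter: *ubc-17*, *ubc-21*, *ubc-22*, *ubc-23*, *ubc-24*, *skr-4*, *skr-5*, *skr-6*, *skr-8*, *skr-9*, *skr-12*, *skr-13* and *skr-20*.

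**Figure D1:**
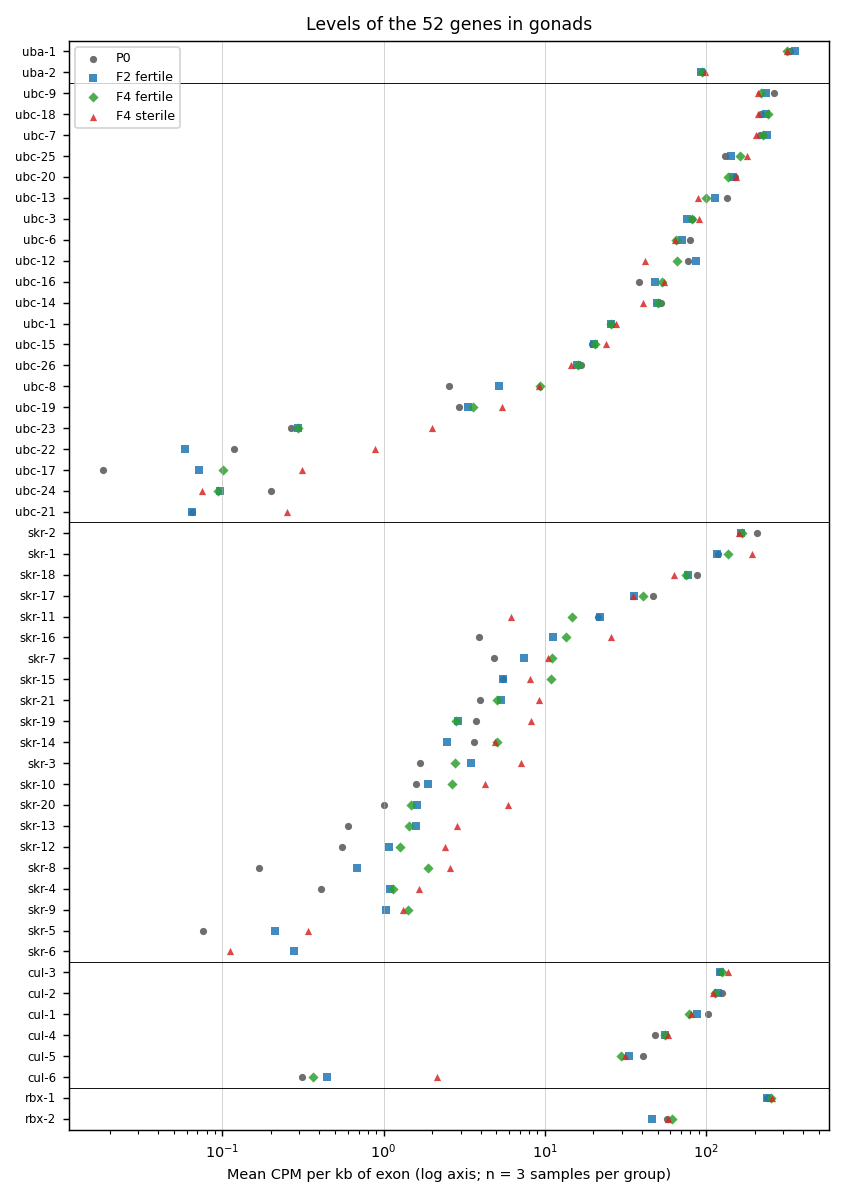
Mean level of each of the 52 genes in CPM per kb of exon (log axis) for each of the 4 groups of gonads (mean of 3 samples each), grouped by family and ordered by level; a group with 0 counts has no point. Levels run between 0.0953 CPM per kb for *ubc-21* and 330.0 CPM per kb for *uba-1* over the 12 samples, and the 4 groups lie close together for most abundant members and spread apart for the rare *skr* genes and *cul-6*.

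Differences between groups were tested with edgeR's quasi-likelihood test, and a gene was called at a Benjamini-Hochberg adjusted p under 0.05 over the 8746 genes. Fold changes are on the log2 scale, with the group named first over the other, and their standard errors (SE) are derived from the test. In F4 sterile against P0 gonads, 11 of the 39 tested members were higher and 9 were lower, beside 26.4% of all tested genes higher and 16.8% lower. Together 20 members (51.3%) were called, against 43.3% of all tested genes. The median log2 fold change was 0.10 over the members and 0.05 over all tested genes. All 20 called members moved the same way in 3 of 3 lineages. The F4 sterile and P0 samples did not overlap for 19 of the 20, the exception being *cul-4*. For those 19 the agreement of the lineages follows from the lack of overlap. Counting every tested member, called or not, 20 of 39 had groups that did not overlap, against 51.7% of all tested genes. The expression filter asked for at least 1.77 CPM (before TMM scaling) in 3 or more samples. *cul-6* reached this level in its 3 F4 sterile samples only, *skr-19* in its 3 F4 sterile samples and 1 P0 sample, and *skr-3* and *skr-10* in no P0 sample. These genes could therefore be tested only because other groups were higher than P0. The counts of higher members include *cul-6* and *skr-3*. The 19 members that were not called had log2 fold changes between -0.40 and 1.09.

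**Figure D2:**
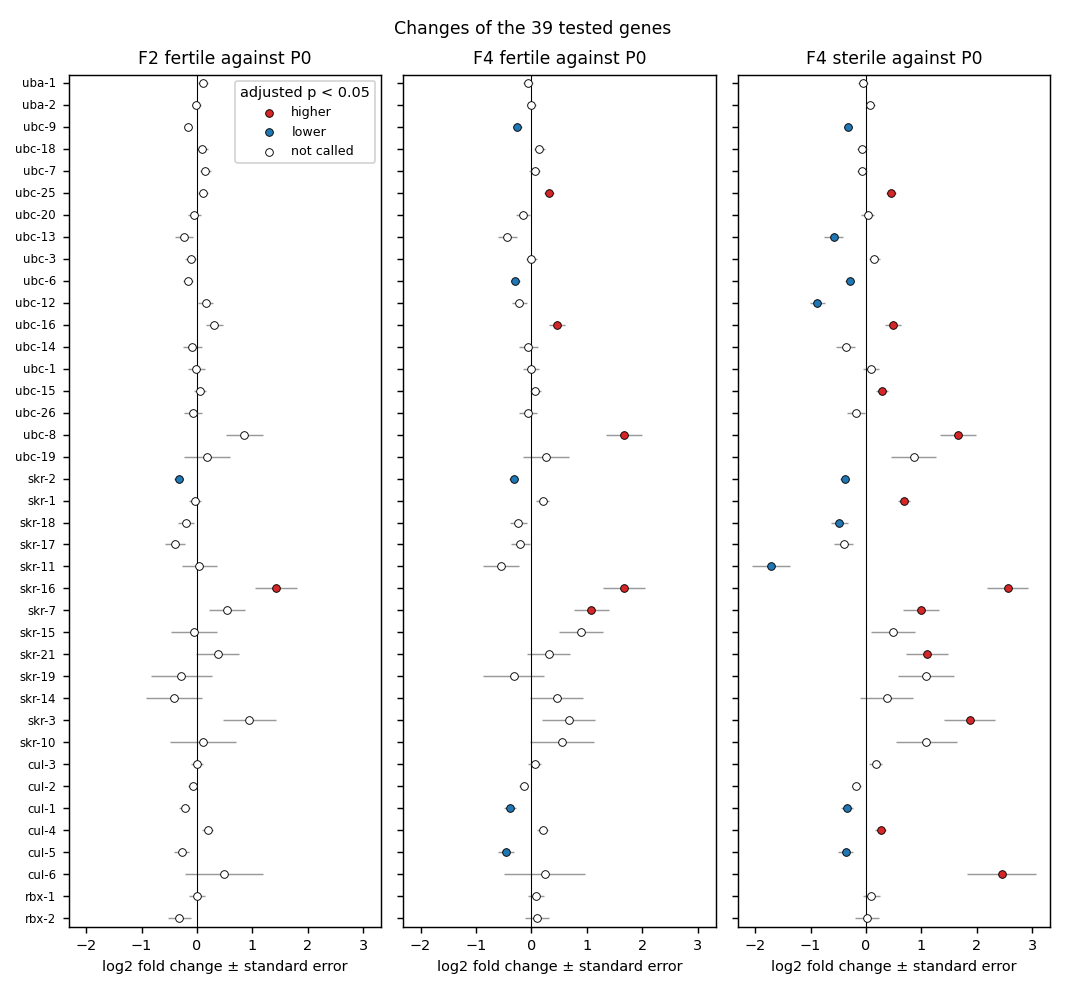
Log2 fold change with its standard error for the 39 tested genes in F2 fertile, F4 fertile and F4 sterile gonads, each against P0 (3 samples a group); filled points passed an adjusted p under 0.05 in edgeR, higher in red and lower in blue. The number of filled points is 2 for F2 fertile, 10 for F4 fertile and 20 for F4 sterile gonads, and the 3 panels share the same P0 samples.

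The E1 genes did not pass the test in any of the 5 comparisons. *uba-1* (C47E12.5, chromosome IV, 9989649 to 9995013 in WS220) had 1227, 1127 and 1234 CPM in P0 gonads, 1376, 1199.7 and 1290.3 CPM in F2 fertile gonads, 1098, 1085 and 1265 CPM in F4 fertile gonads and 1087, 1173 and 1198 CPM in F4 sterile gonads. The 4 groups overlapped, and its log2 fold change in F4 sterile against P0 gonads was -0.05 (SE 0.09, edgeR adjusted p = 0.696), with an approximate 95% interval of -0.23 to 0.13. *uba-2*, which encodes the catalytic subunit of the E1 for SUMO, had a mean of 271 ± 24.0 CPM in F4 sterile gonads and 258 ± 14.2 CPM in P0 gonads (SD, n = 3 each), and a log2 fold change of 0.07 (SE 0.08, edgeR adjusted p = 0.493). Its partner *aos-1*, the other subunit of the SUMO E1, does not carry a *uba* name. It was lower in F4 sterile gonads (103.7 ± 12.5 CPM, against 134 ± 9.03 CPM in P0 gonads), with a log2 fold change of -0.37 (SE 0.09, edgeR adjusted p = 0.00496). The same gene was also lower in F2 fertile (-0.32, edgeR adjusted p = 0.0420) and F4 fertile gonads (-0.33, edgeR adjusted p = 0.0185) than in P0 gonads. *rfl-1* (0.17, edgeR adjusted p = 0.210) and *ula-1* (0.13, edgeR adjusted p = 0.361), whose products form the E1 for NEDD8, were not called in F4 sterile against P0 gonads.

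Among the 16 tested E2 genes, 4 were higher and 4 were lower in F4 sterile than in P0 gonads. The tested *ubc* gene with the largest decrease was *ubc-12* (R09B3.4, chromosome I, 11911315 to 11912040), which encodes the E2 that conjugates NEDD8 to cullins. It had 59.7, 44.3 and 54.6 CPM in P0 gonads, 54.3, 59.5 and 64.3 CPM in F2 fertile gonads, 46.2, 48.4 and 41.4 CPM in F4 fertile gonads and 32.3, 26.99 and 26.7 CPM in F4 sterile gonads. All 3 F4 sterile samples lay below every sample of the other 3 groups. Against P0, its log2 fold change was -0.88 (SE 0.14, edgeR adjusted p = 0.000228) in F4 sterile gonads, and it was -0.22 (edgeR adjusted p = 0.257) for F4 fertile and 0.16 (edgeR adjusted p = 0.543) for F2 fertile gonads. *ubc-12* overlaps *mag-1* on the opposite strand, and *mag-1* changed the other way in F4 sterile against P0 gonads (log2 fold change 0.37, edgeR adjusted p = 0.0344). The library kit does not mark the strand, so reads from the shared part cannot be assigned to either gene.

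Other E2 genes fell by less. *ubc-9* (F29B9.6, chromosome IV, 4651033 to 4652646), the E2 for SUMO, had 269.7, 287 and 265 CPM in P0 gonads, 249, 238 and 246 CPM in F2 fertile gonads, 235, 224 and 230.2 CPM in F4 fertile gonads and 232, 197 and 226 CPM in F4 sterile gonads. Every homozygous sample lay below every P0 sample. In F4 sterile gonads the log2 fold change was -0.33 (SE 0.08, edgeR adjusted p = 0.00372), and in F4 fertile gonads it was -0.25 (edgeR adjusted p = 0.0305). *ubc-13*, which builds chains linked through lysine 63 together with the E2 variant UEV-1, had 111, 134 and 112 CPM in P0 gonads, 80.1, 106 and 117 CPM in F2 fertile gonads, 82.4, 75.2 and 108 CPM in F4 fertile gonads and 83.3, 65.1 and 89.8 CPM in F4 sterile gonads. The F4 sterile samples lay below the P0 samples, with a log2 fold change of -0.58 (SE 0.17, edgeR adjusted p = 0.0123). In F4 fertile gonads *ubc-13* was at -0.43 (edgeR adjusted p = 0.0808), and at -0.45 (edgeR adjusted p = 0.0475) in the fit with lineage as a block. *ubc-6*, named after the yeast E2 of the endoplasmic reticulum, had 99.0, 96.1 and 98.4 CPM in P0 gonads, 86.7, 85.5 and 89.4 CPM in F2 fertile gonads, 71.7, 78.3 and 90.5 CPM in F4 fertile gonads and 80.3, 80.0 and 78.3 CPM in F4 sterile gonads. Each F4 sterile and F4 fertile sample lay below all P0 samples, at log2 fold changes of -0.29 (SE 0.09, edgeR adjusted p = 0.0148) and -0.29 (edgeR adjusted p = 0.0318).

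In the opposite direction, the largest increase among the tested *ubc* genes was that of *ubc-8* (Y94H6A.6, chromosome IV, 2704691 to 2707229). It had 2.80, 1.19 and 2.39 CPM in P0 gonads, 3.65, 3.66 and 5.60 CPM in F2 fertile gonads, 8.38, 7.24 and 7.56 CPM in F4 fertile gonads and 7.95, 6.91 and 8.12 CPM in F4 sterile gonads. All F4 samples, fertile and sterile, lay above all P0 and F2 fertile samples. The log2 fold change was 1.66 (SE 0.32, edgeR adjusted p = 0.000797) in F4 sterile and 1.67 (SE 0.33, edgeR adjusted p = 0.00224) in F4 fertile gonads, each against P0, and -0.01 (edgeR adjusted p = 0.986) in F4 sterile against F4 fertile gonads. *ubc-25* (F25H2.8, chromosome I, 10562957 to 10564904), the *ubc* gene with the highest mean CPM over the 12 samples and a relative of mammalian UBE2Q, had 231, 226 and 229 CPM in P0 gonads, 246, 261 and 233 CPM in F2 fertile gonads, 282, 314 and 252 CPM in F4 fertile gonads and 336, 316 and 288 CPM in F4 sterile gonads. Its P0 samples lay below all F4 samples, and the log2 fold change was 0.46 (SE 0.09, edgeR adjusted p = 0.00137) in F4 sterile and 0.31 (edgeR adjusted p = 0.0278) in F4 fertile gonads.

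Increases were also called for *ubc-16*, a relative of mammalian UBE2W, and *ubc-15*. *ubc-16* had 32.8, 22.3 and 30.4 CPM in P0 gonads, 33.0, 34.2 and 40.3 CPM in F2 fertile gonads, 40.1, 39.4 and 39.3 CPM in F4 fertile gonads and 42.0, 36.9 and 42.5 CPM in F4 sterile gonads. Its F4 samples all lay above the P0 samples, at log2 fold changes of 0.49 (edgeR adjusted p = 0.0162) in F4 sterile and 0.46 (edgeR adjusted p = 0.0419) in F4 fertile gonads. For F4 sterile gonads the adjusted p ranged between 0.0121 and 0.181 over the alternative fits, and the call was lost without the F4 sterile or F4 fertile sample of lineage 3 or the P0 sample of lineage 2 or 3 (log2 fold change 0.26 to 0.45). *ubc-15* had 49.0, 49.4 and 43.8 CPM in P0 gonads, 52.7, 50.3 and 44.1 CPM in F2 fertile gonads, 48.5, 52.6 and 48.2 CPM in F4 fertile gonads and 55.8, 59.5 and 58.9 CPM in F4 sterile gonads. The lowest F4 sterile sample was above the highest P0 sample, and the log2 fold change was 0.29 (edgeR adjusted p = 0.0342). The call was lost without any 1 of the P0 samples, the F4 sterile sample of lineage 2 or 3, or the F4 fertile or F2 fertile sample of lineage 3 (log2 fold change 0.15 to 0.28), and the adjusted p ranged between 0.0267 and 0.506 over the alternative fits. The other 8 tested E2 genes (*ubc-1*, *ubc-3*, *ubc-7*, *ubc-14*, *ubc-18*, *ubc-19*, *ubc-20* and *ubc-26*) were not called in any comparison, with log2 fold changes in F4 sterile against P0 gonads between -0.37 for *ubc-14* and 0.86 for *ubc-19*. With the library prefix as a covariate *ubc-14* was lower, at -0.50 (edgeR adjusted p = 0.0133). *let-70*, an abundant E2 without a *ubc* name, had 343 ± 45.2 CPM in F4 sterile and 351 ± 13.7 CPM in P0 gonads (SD, n = 3 each) and was not called either (-0.03, edgeR adjusted p = 0.838).

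Among the tested *skr* genes, *skr-16* had the largest fold change. *skr-16* (C42D4.6, chromosome IV, 7168698 to 7169334) had 1.96, 1.79 and 2.63 CPM in P0 gonads, 7.29, 6.94 and 4.26 CPM in F2 fertile gonads, 5.17, 10.5 and 6.30 CPM in F4 fertile gonads and 10.2, 16.95 and 15.0 CPM in F4 sterile gonads. Every homozygous sample lay above every P0 sample. The log2 fold change against P0 was 1.42 (SE 0.38, edgeR adjusted p = 0.0217) in F2 fertile, 1.67 (SE 0.38, edgeR adjusted p = 0.00498) in F4 fertile and 2.56 (SE 0.37, edgeR adjusted p = 9.97e-05) in F4 sterile gonads. It was 0.89 (edgeR adjusted p = 0.124) in F4 sterile against F4 fertile gonads, whose samples overlapped. *skr-3* (F44G3.6, chromosome V, 16121760 to 16122621) had 1.26, 1.49 and 1.20 CPM in P0 gonads, 2.66, 3.78 and 1.79 CPM in F2 fertile gonads, 3.03, 2.54 and 1.01 CPM in F4 fertile gonads and 4.13, 7.77 and 4.79 CPM in F4 sterile gonads. Its F4 sterile samples were the highest 3 of the 12, and the log2 fold change against P0 was 1.87 (SE 0.46, edgeR adjusted p = 0.00263). *skr-3* was not called in F2 fertile (0.94, edgeR adjusted p = 0.186) or F4 fertile gonads (0.67, edgeR adjusted p = 0.269).

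*skr-7* and *skr-21* also rose. *skr-7* had 3.92, 2.38 and 2.15 CPM in P0 gonads, 5.33, 4.54 and 3.14 CPM in F2 fertile gonads, 6.78, 7.24 and 5.30 CPM in F4 fertile gonads and 6.27, 6.15 and 5.83 CPM in F4 sterile gonads. Both sets of F4 samples lay above the P0 samples, with log2 fold changes of 0.99 (SE 0.32, edgeR adjusted p = 0.0162) in F4 sterile and 1.08 (edgeR adjusted p = 0.0218) in F4 fertile gonads. The call in F4 sterile gonads was lost without the P0 sample of lineage 2 (0.82) or 3 (0.77), and without the expression filter (0.92, edgeR adjusted p = 0.113). *skr-21*, on chromosome X, had 2.24, 2.68 and 1.44 CPM in P0 gonads, 2.24, 3.53 and 2.69 CPM in F2 fertile gonads, 2.14, 3.10 and 2.77 CPM in F4 fertile gonads and 3.36, 6.48 and 4.79 CPM in F4 sterile gonads. The F4 sterile samples lay above the P0 samples, at a log2 fold change of 1.11 (SE 0.38, edgeR adjusted p = 0.0193), which was between 0.77 and 1.07 and not called without the F4 sterile sample of lineage 2 or the P0 sample of lineage 1 or 3. The call was also lost without the expression filter (1.03, edgeR adjusted p = 0.111).

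Among the *skr* genes that fell, *skr-11* (F13A7.9, chromosome V, 16389221 to 16389845), which the WBcel235 annotation lists as a pseudogene, had 11.9, 13.1 and 15.1 CPM in P0 gonads, 13.5, 12.2 and 15.7 CPM in F2 fertile gonads, 6.06, 6.49 and 15.1 CPM in F4 fertile gonads and 3.98, 3.24 and 4.37 CPM in F4 sterile gonads. The F4 sterile samples were the lowest 3, whereas in F4 fertile gonads lineages 1 and 2 were low and lineage 3 was at the P0 level. Its log2 fold change against P0 was -1.72 (SE 0.34, edgeR adjusted p = 0.00105) in F4 sterile and -0.55 (edgeR adjusted p = 0.237) in F4 fertile gonads. *skr-18* had 58.5, 71.1 and 55.0 CPM in P0 gonads, 48.7, 49.5 and 63.0 CPM in F2 fertile gonads, 51.7, 46.0 and 59.5 CPM in F4 fertile gonads and 45.7, 37.5 and 48.9 CPM in F4 sterile gonads. All F4 sterile samples lay below all P0 samples, and the log2 fold change was -0.48 (SE 0.15, edgeR adjusted p = 0.0200). *skr-18* overlaps F56B3.11 on the same strand, which was not called (log2 fold change -0.19, edgeR adjusted p = 0.242).

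*skr-1* (F46A9.5, chromosome I, 9470761 to 9472634) and *skr-2* (F46A9.4, chromosome I, 9469696 to 9470629) are neighbours on the same strand, 131 bases apart. They encode the main Skp1 proteins of *C. elegans*, which bind CUL-1 and are required in embryos and for restraint of cell proliferation. Their transcripts changed in opposite directions in F4 sterile against P0 gonads. *skr-1* had 99.99, 96.1 and 112 CPM in P0 gonads, 89.5, 109.6 and 101 CPM in F2 fertile gonads, 117, 124 and 113 CPM in F4 fertile gonads and 141, 185 and 169 CPM in F4 sterile gonads. Its F4 sterile samples lay above all others, and the log2 fold change against P0 was 0.69 (SE 0.11, edgeR adjusted p = 0.000319) in F4 sterile, 0.20 (edgeR adjusted p = 0.216) in F4 fertile and -0.04 (edgeR adjusted p = 0.9003) in F2 fertile gonads. *skr-2* had 164, 144 and 165 CPM in P0 gonads, 127, 124 and 126 CPM in F2 fertile gonads, 131, 122 and 127 CPM in F4 fertile gonads and 128, 114 and 119.1 CPM in F4 sterile gonads. Every homozygous sample lay below every P0 sample. Against P0, *skr-2* changed on the log2 scale by -0.33 (SE 0.08, edgeR adjusted p = 0.0188) in F2 fertile, -0.32 (SE 0.08, edgeR adjusted p = 0.0125) in F4 fertile and -0.39 (SE 0.08, edgeR adjusted p = 0.00157) in F4 sterile gonads. The genes are close paralogs, and although the authors kept only reads with a unique mapping, reads from shared stretches may be lost from both. *skr-1* also overlaps F30A10.1 on the opposite strand, which had 220 counts over the 12 samples, against 9336 for *skr-1*. F30A10.1 was higher in F4 sterile than in P0 gonads as well (log2 fold change 1.75, edgeR adjusted p = 0.00916).

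**Figure D3:**
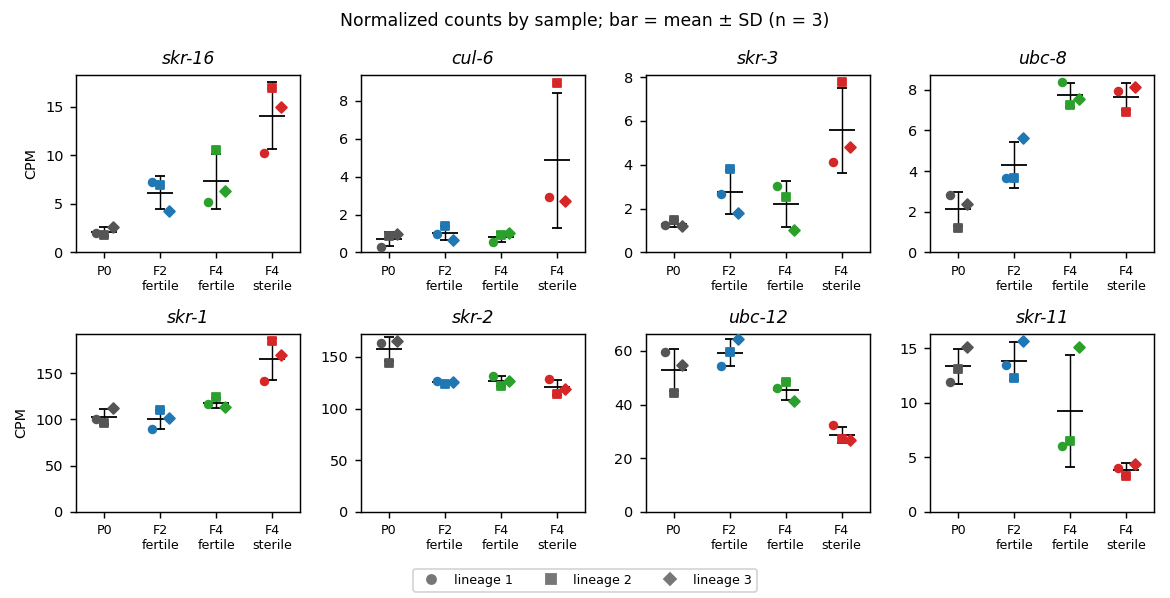
CPM of *skr-16*, *cul-6*, *skr-3*, *ubc-8*, *skr-1*, *skr-2*, *ubc-12* and *skr-11* in each of the 12 samples, with 1 symbol per lineage and bars at the mean ± SD of each group (n = 3), on linear axes that start at 0. *cul-6* lies between 2.71 and 8.96 CPM in F4 sterile gonads and at or below 1.39 CPM in the other 9 samples, whereas all 9 homozygous samples lie below the P0 samples for *skr-2*.

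Expressed as a share of the reads on both genes, *skr-1* made up 39.4 ± 1.32% in P0 gonads, 44.3 ± 2.81% in F2 fertile gonads, 48.2 ± 1.96% in F4 fertile gonads and 57.6 ± 4.81% in gonads of F4 sterile animals (SD, n = 3 each). By sample the share was 52.4, 61.8 and 58.7% in F4 sterile gonads of lineages 1, 2 and 3, against 37.9, 40.0 and 40.4% in P0 gonads. The lowest F4 sterile share had a 95% Wilson interval of 50.05 to 54.7%, against 37.6 to 43.2% for the highest P0 share, and these intervals cover counting error only. In each of the 5 comparisons the groups did not overlap, and the exact two-sided permutation p was 0.1, the smallest that 3 against 3 samples can give. For F4 fertile and F4 sterile against P0 gonads this follows from the values above, since *skr-1* lay wholly above and *skr-2* wholly below P0. The difference was 18.2 percentage points in F4 sterile against P0 and 9.40 percentage points in F4 sterile against F4 fertile gonads. This ratio was examined after the values of both genes were seen.

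**Figure D4:**
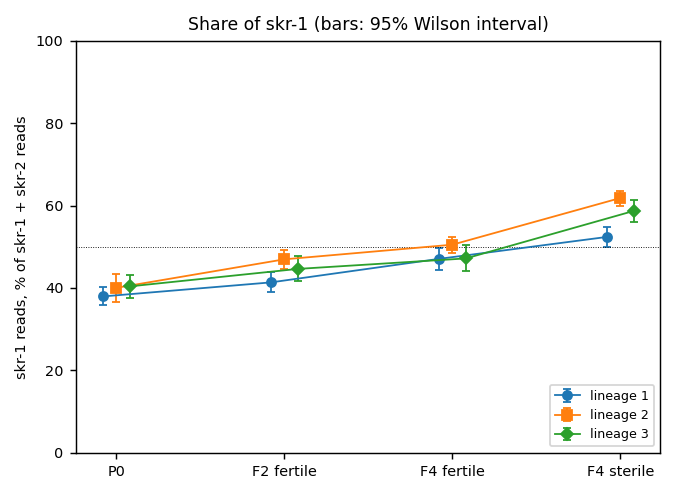
Share of *skr-1* in the reads on *skr-1* and *skr-2* in percent, by group and lineage, with 95% Wilson intervals; lines join samples of a lineage and the dotted line marks equal reads on both genes. The P0 shares lie between 37.9 and 40.4% and the F4 sterile shares between 52.4 and 61.8%.

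Of the other tested *skr* genes, *skr-10*, *skr-14*, *skr-15*, *skr-17* and *skr-19* were not called in any comparison. With the library prefix as a covariate, *skr-17* was lower (edgeR adjusted p = 0.00595) and *skr-10* (edgeR adjusted p = 0.0175) and *skr-19* (edgeR adjusted p = 0.0340) were higher in F4 sterile than in P0 gonads, and *skr-19* was higher than in F4 fertile gonads (edgeR adjusted p = 0.0427). *skr-19* passed the expression filter only through its F4 sterile samples, and *skr-10* only through F4 samples, so both were selected on groups where they were high. Without the expression filter *skr-17* was also lower than in P0 gonads (edgeR adjusted p = 0.0300). *skr-17*, the most abundant of them, had 38.6 ± 10.4 CPM in F4 sterile and 51.3 ± 6.94 CPM in P0 gonads (SD, n = 3 each), at a log2 fold change of -0.40 (edgeR adjusted p = 0.0798). *skr-19*, a neighbour of *skr-20* and *skr-21* on chromosome X, was at 1.09 (edgeR adjusted p = 0.0653), and *skr-10* was at 1.09 (edgeR adjusted p = 0.0765).

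Of the 6 cullin genes, 2 were higher and 2 were lower in F4 sterile than in P0 gonads. *cul-6* (K08E7.7, chromosome IV, 12586462 to 12590404) had 0.280, 0.893 and 0.957 CPM in P0 gonads, 0.982, 1.39 and 0.672 CPM in F2 fertile gonads, 0.535, 0.940 and 1.01 CPM in F4 fertile gonads and 2.90, 8.96 and 2.71 CPM in F4 sterile gonads. The F4 sterile samples were the highest 3 of the 12, and lineage 2 was far above the others. The log2 fold change against P0 was 2.45 (SE 0.63, edgeR adjusted p = 0.00229), and 1.62 without the F4 sterile sample of lineage 2. Since *cul-6* passed the filter through its F4 sterile samples alone, it was selected on the group where it was high. In the fit without the filter its log2 fold change was 2.38 (edgeR adjusted p = 0.000101). In *C. elegans*, CUL-6 is known to form a ligase with SKR-3, SKR-4 and SKR-5 that is induced by intracellular infection. *cul-6* had 115 counts in the 3 F4 sterile samples together, against 9 in P0, and *skr-3* had 122, against 19 in P0. *skr-4* and *skr-5* remained too low for a test, with 26 and 4 counts in F4 sterile, against 6 and 1 in P0 gonads. The other genes of that response on the list (F26F2.1, F26F2.3, F26F2.4 and C17H1.6) had at most 4 counts in any library, and none of the 4 was tested.

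*cul-1* (D2045.6, chromosome III, 10471140 to 10475503), the scaffold of SCF ligases, had 262, 267 and 265 CPM in P0 gonads, 222, 222 and 235 CPM in F2 fertile gonads, 185, 199.9 and 225 CPM in F4 fertile gonads and 171, 228 and 227 CPM in F4 sterile gonads. All homozygous samples lay below the P0 samples, and the log2 fold change was -0.34 (SE 0.11, edgeR adjusted p = 0.0206) in F4 sterile and -0.38 (SE 0.11, edgeR adjusted p = 0.0231) in F4 fertile gonads. Without the F4 sterile sample of lineage 1 the change in F4 sterile gonads was -0.22 (edgeR adjusted p = 0.0573). In the fit to the groups compared only it was -0.33 (edgeR adjusted p = 0.0575), and neither fit gave a call. *cul-5* (ZK856.1, chromosome V, 10179509 to 10183129), which pairs with RBX-2, had 103, 110.4 and 103 CPM in P0 gonads, 87.4, 94.0 and 78.4 CPM in F2 fertile gonads, 57.6, 82.2 and 91.0 CPM in F4 fertile gonads and 72.5, 85.7 and 86.4 CPM in F4 sterile gonads. Its homozygous samples were likewise all below the P0 samples. The log2 fold change was -0.45 (SE 0.14, edgeR adjusted p = 0.0367) in F4 fertile and -0.37 (SE 0.14, edgeR adjusted p = 0.0498) in F4 sterile gonads. The F4 sterile call was lost without the F4 sterile sample of lineage 1 or 3, the F4 fertile sample of lineage 2 or the F2 fertile sample of lineage 1 or 2 (log2 fold change -0.41 to -0.29), and with the library prefix as a covariate, at -0.23 (edgeR adjusted p = 0.0749). *cul-4* (F45E12.3, chromosome II, 7302060 to 7305717), which acts with DDB-1 in the control of DNA replication licensing, had 129, 128 and 145 CPM in P0 gonads, 167, 144 and 148 CPM in F2 fertile gonads, 159, 152 and 152 CPM in F4 fertile gonads and 183, 144 and 156 CPM in F4 sterile gonads. The lowest F4 sterile sample lay below the highest P0 sample, and the log2 fold change was 0.27 (SE 0.10, edgeR adjusted p = 0.0406). This call was lost without any 1 library except the F2 fertile sample of lineage 1 (log2 fold change 0.14 to 0.29), and the adjusted p ranged between 0.0259 and 0.385 over the alternative fits.

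The cullins with the highest levels, *cul-3* and *cul-2*, were not called, although some of the alternative fits called them. *cul-3* (Y108G3AL.1, chromosome V, 177422 to 184873), the scaffold for BTB receptors such as MEL-26, had 365, 411 and 377 CPM in P0 gonads, 368, 383 and 402 CPM in F2 fertile gonads, 377, 395 and 426 CPM in F4 fertile gonads and 357, 436 and 506 CPM in F4 sterile gonads. The groups overlapped, with a log2 fold change of 0.17 (SE 0.11, edgeR adjusted p = 0.222) and an approximate 95% interval of -0.04 to 0.39. With the library prefix as a covariate *cul-3* was higher in F4 sterile gonads, at 0.27 (edgeR adjusted p = 0.0135). *cul-2*, which works with elongins in meiosis and in the early embryo, had 349 ± 25.2 CPM in F4 sterile and 394 ± 20.0 CPM in P0 gonads (SD, n = 3 each), at a log2 fold change of -0.17 (edgeR adjusted p = 0.0940), and was called lower by DESeq2 at -0.22 (adjusted p = 0.0481). Of the CPM per kb summed over the 6 cullins, *cul-3* held 32.4 ± 2.74% in F4 sterile and 27.7 ± 1.06% in P0 gonads. These shares did not overlap, nor did those of any other cullin except *cul-2*. Shares of a common total depend on each other. *cul-1* held 19.1 ± 1.87% in F4 sterile and 23.3 ± 0.43% in P0 gonads, *cul-4* held 14.04 ± 2.88% in F4 sterile and 11.1 ± 0.98% in P0 gonads, and *cul-6* held 0.51 ± 0.37% in F4 sterile and 0.071 ± 0.037% in P0 gonads.

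Neither Rbx gene was called in any comparison. *rbx-1* (ZK287.5, chromosome V, 9689658 to 9690591), the RING subunit of most cullin ligases, had 134, 145 and 149.8 CPM in P0 gonads, 117, 150.4 and 164 CPM in F2 fertile gonads, 132, 151 and 173 CPM in F4 fertile gonads and 132, 142 and 186 CPM in F4 sterile gonads. Within each group lineage 3 was the highest, and the groups overlapped. In F4 sterile against P0 gonads its log2 fold change was 0.10 (SE 0.15, edgeR adjusted p = 0.614), with an approximate 95% interval of -0.19 to 0.39. *rbx-2* had 33.2 ± 9.61 CPM in F4 sterile and 32.7 ± 6.53 CPM in P0 gonads (SD, n = 3 each), at a log2 fold change of 0.02 (edgeR adjusted p = 0.953).

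F4 sterile and F4 fertile gonads come from the same generation and lineages and differ in fertility. Between them, 2 of 39 members were higher and 1 was lower, beside 2.85% of all tested genes higher and 0.434% lower. *cul-6* was higher in F4 sterile gonads by 2.21 (SE 0.57, edgeR adjusted p = 0.0343) and *skr-1* by 0.49 (SE 0.11, edgeR adjusted p = 0.0342), both on the log2 scale. *cul-6* was tested only because of its F4 sterile samples, and without the filter its change was 2.16 (edgeR adjusted p = 0.000914). *ubc-12* was lower in F4 sterile gonads, at -0.66 (SE 0.13, edgeR adjusted p = 0.0276). For these 3 genes the F4 sterile samples lay wholly above or below the F4 fertile samples. The 3 called members make up 7.69% of those tested, against 3.28% of all tested genes, and the groups did not overlap for 10 of 39 members, against 21.9% of all tested genes. Without the F4 sterile sample of lineage 2, *cul-6* was at 1.40 (edgeR adjusted p = 0.197), *skr-1* at 0.36 (edgeR adjusted p = 0.247) and *ubc-12* at -0.65 (edgeR adjusted p = 0.121), and none was called. Each of the 3 calls was also lost without any 1 of the F4 fertile samples, that of *cul-6* without the F2 fertile sample of lineage 1 or the P0 sample of lineage 2 or 3, that of *skr-1* without the F4 sterile or F2 fertile sample of lineage 3 or any P0 sample, and that of *ubc-12* without the F4 sterile sample of lineage 3. In these fits the log2 fold change lay between 1.40 and 2.28 for *cul-6*, between 0.36 and 0.52 for *skr-1* and between -0.76 and -0.61 for *ubc-12*. With lineage as a block, *skr-3* (log2 fold change 1.23, edgeR adjusted p = 0.0491) and *skr-11* (-1.10, edgeR adjusted p = 0.0369) were called as well, giving 3 higher and 2 lower members, beside 5.44% of all tested genes higher and 1.45% lower in that fit.

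In F4 fertile against P0 gonads, 5 of 39 members were higher (*ubc-8*, *ubc-16*, *ubc-25*, *skr-7* and *skr-16*), beside 13.7% of all tested genes, and 5 were lower (*ubc-6*, *ubc-9*, *skr-2*, *cul-1* and *cul-5*), beside 7.42%. In F2 fertile against P0 gonads, *skr-16* was the 1 member higher, beside 7.6% of all tested genes, and *skr-2* the 1 member lower, beside 1.33%. The called members made up 25.6% of those tested in F4 fertile gonads, against 21.1% of all tested genes, and 5.13% in F2 fertile gonads, against 8.93%. The samples did not overlap with those of P0 for 15 of 39 members in F4 fertile gonads, against 44.6% of all tested genes, and for 12 of 39 in F2 fertile gonads, against 31.8%. Among the calls in F4 fertile gonads, those of *ubc-8* and *skr-16* held in every alternative fit. Without the F4 fertile sample of lineage 1 the calls of *ubc-6*, *ubc-9*, *ubc-16*, *ubc-25*, *skr-7*, *cul-1* and *cul-5* were lost, which left 2 higher and 1 lower, and without that of lineage 2 the call of *skr-2* was lost as well, which left 2 higher and 0 lower. Leaving out the P0 sample of lineage 2 or 3 lost the calls of *cul-5*, *skr-7*, *ubc-16* and *ubc-25*, with *ubc-9* for lineage 2 and *ubc-6* for lineage 3, and without that of lineage 1 *ubc-16* and *ubc-25* were lost. *ubc-16* was also lost without the F4 fertile sample of lineage 3, the F4 sterile or F2 fertile sample of lineage 2 or that of lineage 3, and *ubc-25* without the F2 fertile sample of lineage 3. The F2 fertile call of *skr-16* was lost without any 1 of the P0 samples or the F2 fertile sample of lineage 1 or 2 (log2 fold change 1.29 to 1.52), and that of *skr-2* without the F2 fertile sample of lineage 2 or the P0 sample of lineage 3 (-0.35 and -0.32). These comparisons share their P0 samples with that of F4 sterile gonads. In F4 fertile against F2 fertile gonads edgeR called 0 of 39 members in either direction, beside 0.0114% of all tested genes higher and 0% lower, and DESeq2 called 0 as well. These groups did not overlap for 7 of 39 members, against 15.5% of all tested genes. At an unadjusted p under 0.05, 4 members were higher and 1 was lower in that comparison, among 306 higher and 502 lower genes.

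Genes of the same pathways that do not carry these names were read from short lists, beside 26.4% of all tested genes higher and 16.8% lower in F4 sterile than in P0 gonads. Of 4 tested genes for ubiquitin and ubiquitin-like proteins, 1 was lower in F4 sterile than in P0 gonads, *ubq-1*, the polyubiquitin gene (1853 ± 114 CPM, against 2481 ± 171 CPM in P0 gonads, SD, n = 3 each), at a log2 fold change of -0.42 (SE 0.09, edgeR adjusted p = 0.00293). *ned-8* (0.22, edgeR adjusted p = 0.608) and *smo-1* (-0.08, edgeR adjusted p = 0.794), which encode NEDD8 and SUMO, were not called. Of 9 genes for neddylation, deneddylation and exchange of cullins, 0 were higher and 3 were lower, the COP9 signalosome subunits *csn-1* (-0.27, edgeR adjusted p = 0.0196) and *csn-6* (-0.24, edgeR adjusted p = 0.0204) and *cif-1* (-0.34, edgeR adjusted p = 0.00310), a subunit shared with the translation factor eIF3. The median of these 9 was -0.14, against 0.05 over all tested genes. On a further list of 4 E2 genes and variants, 3 were tested and *uev-3* was higher (0.76, edgeR adjusted p = 0.0400).

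Substrate receptors and adaptors of the cullins went in both directions in F4 sterile against P0 gonads. Of 4 F-box receptors of CUL-1, *lin-23* was higher (0.25, edgeR adjusted p = 0.0284) and *prom-1*, required for meiotic chromosome pairing, was lower (-0.65, edgeR adjusted p = 0.00257). Of 8 adaptors and receptors of CUL-2, *vhl-1*, the homologue of the von Hippel-Lindau protein, was higher (3.74 ± 1.19 CPM, against 0.632 ± 0.432 CPM in P0 gonads, SD, n = 3 each), at 2.00 (edgeR adjusted p = 0.0127), and *fem-1*, of the sex determination pathway, was lower (-0.34, edgeR adjusted p = 0.00690). Of 3 BTB receptors of CUL-3, *kel-8* was higher (1.23, edgeR adjusted p = 0.00617), while *mel-26* was at -0.36 (edgeR adjusted p = 0.120). Of 4 CUL-4 genes, *wdr-23*, the receptor that restrains the stress factor SKN-1, was higher (0.30, edgeR adjusted p = 0.0467) and *ddb-1* was at 0.09 (edgeR adjusted p = 0.438). The other listed receptors and adaptors were not called.

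The 13 members below the expression filter had between 3 counts (*skr-6*) and 109 counts (*skr-20*) over the 12 samples. Their counts are given here as sums over the 3 samples of a group. *skr-20* had 7 counts in P0 gonads, 17 in F2 fertile gonads, 16 in F4 fertile gonads and 69 in F4 sterile gonads, where 47 came from lineage 2. *ubc-23* had 5, 7, 7 and 62 counts in the same order, and 55 of the 62 (88.7%) came from lineage 2. *skr-8* had 1, 7, 27 and 30 counts, and its ratio of depth-scaled counts in F4 sterile against P0 gonads was 23.8, with a counting interval of 3.96 to 971.

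*skr-9*, a neighbour of *skr-8*, *skr-12* and *skr-13* in a cluster on chromosome IV, had 0 counts in P0 and 14, 17 and 17 counts in F2 fertile, F4 fertile and F4 sterile gonads, so that it was at least 4.49-fold higher in F4 sterile than in P0 gonads, with the floor of 3 counts taken over the group. *skr-8* and *skr-9* have the same exon length (585 bases) and are close copies, so the split of reads between them is uncertain. When all 26894 genes with at least 1 count were tested, edgeR called *ubc-23*, *skr-8*, *skr-9* and *skr-20* higher in F4 sterile than in P0 gonads (adjusted p between 0.00355 and 0.00826), beside 8.94% of all genes in that fit.

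On chromosome X lie 7 members, *ubc-17*, *ubc-21*, *ubc-22*, *ubc-23*, *skr-19*, *skr-20* and *skr-21*. Of these, 2 were tested, *skr-19* and *skr-21*, and *skr-21* was higher in F4 sterile than in P0 gonads. Over the chromosome, 73.8% of the 971 tested X-linked genes were higher and 1.44% were lower in F4 sterile than in P0 gonads, against 20.5% higher and 18.8% lower of the 7775 tested autosomal genes. For each of the 7 members the mean level was higher in F4 sterile than in P0 gonads, for example 2.39 against 0.319 CPM for *ubc-23* and 3.86 against 1.74 CPM for *skr-19*. A higher mean is a weaker measure than a call, and its share over all X-linked genes was not taken. Some members rest on few counts, with 5 against 1 for *ubc-21*, 16 against 2 for *ubc-22* and 18 against 1 for *ubc-17*. The sample of lineage 2 held the most F4 sterile counts of each of the 5 untested ones.

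The library names in the labels carry 3 prefixes, which were treated as batches. The P0 and F4 sterile groups met within 2 of them, and all 20 members called between these groups changed in the same direction within both. All 10 members called in F4 fertile against P0 and both members called in F2 fertile against P0 gonads also kept their direction within each prefix that held both groups. So did the 3 members called in F4 sterile against F4 fertile gonads, within each of the 3 prefixes. Where the samples of 2 groups do not overlap, the direction within a prefix is fixed in advance. This held for 19 of the 20 members called in F4 sterile against P0 gonads, and for every call in the other comparisons. These agreements are therefore no check on a batch effect. With the prefix as a covariate, 13 of 39 members were higher and 10 were lower in F4 sterile than in P0 gonads, beside 28.7% of all tested genes higher and 19.9% lower in that fit. The 13 include *cul-6*, *skr-3*, *skr-10* and *skr-19*, which passed the filter only because other groups were higher than P0. *cul-3*, *skr-10*, *skr-19*, *skr-17* and *ubc-14* gained a call, and *cul-4* and *cul-5* lost theirs.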

How the data were processed

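Whole counts per gene were deposited without normalization. The authors made them with HTSeq after aligning to the transcriptome of WS220 (TopHat2), keeping only reads with a unique mapping and dropping those on ribosomal RNAs. Versions of these tools, and whether strand was used in counting, are not given in the sources used here. The library kit does not mark the strand, so overlapping genes share reads. A further table deposited by the authors holds gene coordinates, taken here as those of WS220, a normalized signal per sample, which is each count over its sample's DESeq2 size factor, and their own fold changes and adjusted p-values, of which none was used. 0 sample columns remained without a sample. Reads on no gene (8.23% to 14.4%) and ambiguous reads (1.76% to 2.24%) were left out.

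The counts of all 12 samples entered 1 quasi-likelihood fit by group in edgeR 4.0.16 (R 4.3.3), after its default filter and TMM scaling. Fold changes carry a prior count of 2, and p-values were adjusted over 8746 genes. On simulated counts for F4 sterile against P0 gonads with 200 of 8746 genes changed, 80.0% of 2-fold and 94.0% of 4-fold changes were called, and 5.43% of 184 calls were false. The simulation gave every gene the same dispersion, had no lineage or prefix effect and changed a smaller share of genes than was called in the data. Its rates may therefore not hold for the data. Standard errors are the absolute fold change without the prior count divided by the square root of the F statistic, and 95% intervals are normal approximations from them. The replicate number in the labels was read as the lineage. The numbers were taken to pair the samples, since by the study's methods every lineage started from separate P0 animals. Deviations from the group means correlated above 0.1 in 7 of 18 pairs of the same lineage (mean 0.0953) and in 10 of 36 pairs of different lineages (mean -0.0477). Samples of the same lineage often shared a library prefix, so lineage and prefix cannot be told apart in these correlations. Alternatives were DESeq2 1.42.0, its size factors (RLE), no expression filter, a prior count of 0.5, lineage as a block, the library prefix as a covariate, a fit to the groups compared only, and each of the 12 libraries left out. Within a prefix, directions were read from log2(CPM + 0.5).

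The members and the lists of other genes were chosen with earlier results of these data known. Per-sample values are given for members called in at least 1 of the 5 comparisons and for the member of each family with the highest mean CPM. Genes outside the name rule come from the lists or overlap a member. Exon lengths and the pseudogene label come from the WBcel235 annotation. Intervals and floors (3 counts) cover counting error only.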

Additional observations from a re-analysis of the deposited data

Results flagged for a closer look

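The change from P0 differed between F4 sterile and F4 fertile gonads for 3 members, by the direct test of the 2 groups in edgeR. The difference on the log2 scale was 2.21 for *cul-6* (edgeR adjusted p = 0.0343), 0.49 for *skr-1* (edgeR adjusted p = 0.0342) and -0.66 for *ubc-12* (edgeR adjusted p = 0.0276), each in the same direction in 3 of 3 lineages. The lineages had to agree, since the groups did not overlap for these members. *cul-6* passed the expression filter only through its F4 sterile samples. *cul-6* and *skr-1* were highest in the F4 sterile sample of lineage 2.

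*skr-14* was not called in any comparison, and its values had opposite signs in 2 of the groups. On the log2 scale it differed from P0 by 0.39 ± 0.40 in F4 sterile gonads (edgeR adjusted p = 0.508) and by -0.48 ± 0.32 in F2 fertile gonads (edgeR adjusted p = 0.650; mean ± SD over 3 lineages, n = 3 each), above P0 in every lineage in F4 sterile and below P0 in every lineage in F2 fertile gonads. Both differences use the same P0 samples, the counts lay between 2 and 25 per library, and the difference between them was not tested.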

How the results depend on the processing

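No call of the main fit changed its direction. Each call of the main fit was followed through the alternatives. Of the resulting 245 values over fits to all samples or to 2 groups, 26 lost the call and 219 kept it. Of 420 values with 1 library left out, 94 lost it and 326 kept it. These totals leave out calls that were gained. For example, DESeq2 called *ubc-13* lower in F4 fertile than P0 gonads (-0.47, adjusted p = 0.0486). It also called *skr-11* lower in F4 sterile than F4 fertile gonads (-1.24, adjusted p = 0.0152). In F4 sterile against P0 gonads 13 of 20 calls held in every alternative, in F4 fertile against P0 gonads 2 of 10, in F2 fertile against P0 gonads 0 of 2 and in F4 sterile against F4 fertile gonads 0 of 3.

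A fit to only the groups compared gave 2 members lower in F2 fertile than P0 gonads in place of 1, and 0 higher and 0 lower between F4 sterile and F4 fertile gonads in place of 2 and 1. In F4 sterile against P0 gonads it lost the calls of *cul-1*, *cul-4*, *ubc-15* and *ubc-16* (edgeR adjusted p between 0.0502 and 0.0699). Without the expression filter 3 members in place of 5 were lower in F4 fertile than P0 gonads, and between F4 sterile and F4 fertile gonads 4 were higher and 2 were lower. In F4 sterile against P0 gonads that fit lost the calls of *cul-4*, *skr-7*, *skr-21*, *ubc-15* and *ubc-16*. With the library prefix as a covariate 5 were higher and 2 lower in F4 sterile than F4 fertile gonads, and DESeq2 gave 2 lower. The replicate block by lineage gave 2 lower and 3 higher there, 11 higher and 9 lower in F4 sterile than P0 gonads, 5 and 6 in F4 fertile than P0 gonads, and 1 and 1 in F2 fertile than P0 gonads. Beside the 3 further calls given in the report, the block changed no call. The cause of these shifts was not tested. Most of these counts have no share of all tested genes from the same fit beside them, so they are no result about the members.

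Leaving out 1 library gave 8 to 15 members higher and 8 to 12 lower in F4 sterile than P0 gonads, 2 to 5 higher and 0 to 7 lower in F4 fertile than P0 gonads, 0 to 1 higher and 0 to 1 lower in F2 fertile than P0 gonads, and 0 to 6 higher and 0 to 1 lower in F4 sterile than F4 fertile gonads. In F4 fertile against F2 fertile gonads it gave 0 in both directions. The shares of all tested genes called with a library left out were not taken, so these counts are no result about the members. Without the F4 sterile sample of lineage 2, 8 members were higher and 9 lower in F4 sterile than P0 gonads. Depth limits the rare genes: at the lowest total 3 counts stand for 0.868 CPM, and 13 of the 52 members could not be tested.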
